A study of Mus musculus with 8 samples.

Results

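Gene expression in mouse ventricles labelled DKO (n = 3) was compared with that in ventricles labelled KO (n = 2), for all 13544 of the 13677 genes in the deposited table that had a signal of at least 1 in at least 2 of the 8 libraries of the series. Of the 133 genes left out, the nearest to this limit had a second-highest signal of 0.994, and the nearest gene above it 1.0038. These 5 libraries are the members of the comparison, and the 3 libraries labelled C entered the fit only to estimate the spread between libraries. The series sets Vhl-deficient against wild-type ventricular tissue from a Wt1-Cre mouse model, in which the recombinase acts where Wt1 is or was active, mainly in the epicardium and the cells it gives rise to. Poly(A) RNA of untreated tissue was sequenced, and the signal is a scaled read count per gene. The labels do not spell out C, KO or DKO, and the exons deleted, the second change of DKO, and the strain, age and number of mice were absent from the sources used here. The KO libraries are numbered 1 and 3, and no KO 2 is among the 8 libraries. No label ties the libraries to separate animals, and p-values reflect the spread among these samples alone, part of which may be technical.

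The von Hippel-Lindau protein, the product of Vhl, recognises the oxygen-dependently hydroxylated alpha subunits of the hypoxia-inducible factors (HIF), and the ligase to which it belongs tags them with ubiquitin for destruction. Without it, HIF-1 alpha (Hif1a) and HIF-2 alpha (Epas1) persist and switch on genes of glucose uptake, glycolysis, blood vessel growth and matrix modification. Under load or injury, ventricular muscle returns to part of its fetal programme, with beta myosin heavy chain and natriuretic peptides, and fibroblasts lay down collagen-rich matrix.

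In limma's fit 1599 genes passed an adjusted p of 0.05, which is 11.8% of those tested. Of these, 823 were higher in DKO (6.08%) and 776 were lower (5.73%), and 648 differed at least 2-fold (324 in each direction). At 4-fold or more there were 28 genes higher and 48 lower, and the median log2 difference over all genes was 0.01. In 5627 tested genes (41.5%) the DKO and KO values did not overlap, and these held 1598 of the 1599 called genes. The calls rest on a small number of libraries: 564 genes passed without KO 1 (2.18% higher, 2.02% lower), 310 without KO 3 (1.07% higher, 1.23% lower) and 733 with the C libraries out of the fit. In all 8 fits that left out a library 205 genes passed, 92 higher and 113 lower. The split also rests on the scaling. With mitochondrial transcripts removed and the other reads scaled to a common total, 385 genes were higher and 3415 lower. The median of all genes moved to -0.32. This setting, called mitochondrial transcripts removed below, also replaced the library scaling of the deposited signal. The parts of both changes were not told apart.

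**Figure D1:**
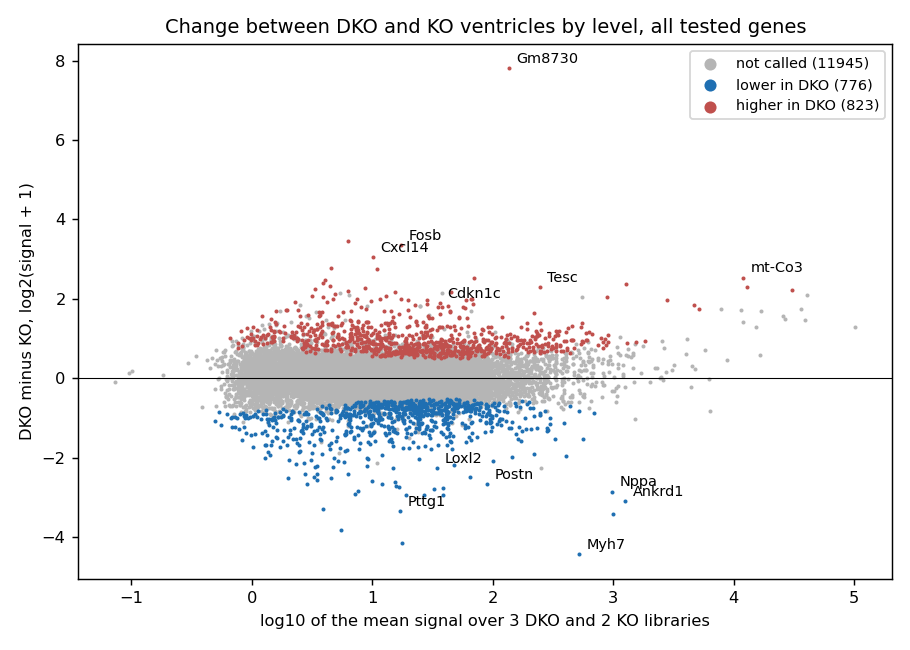
Log2 difference between DKO and KO, on log2(signal + 1), against the log10 mean signal over the 5 libraries, 1 point per tested gene. Red points are the 823 genes called higher in DKO and blue points the 776 called lower by limma at an adjusted p of 0.05, and named genes are among those described in the text.

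The tables of the 5 libraries held 15028176 to 21202385 reads. A principal component with 55.1% of the variance separated KO from DKO. The second, with 21.7%, placed DKO 2 at 30.1 and DKO 1 and DKO 3 at -16.1 and -24.4. KO 1 and KO 3 lay between them, at 8.03 and 2.40. Mitochondrial transcripts took 22.9%, 41.6% and 29.9% of the reads in DKO 1, 2 and 3, and 16.2% and 17.4% in KO 1 and KO 3. The 10 most abundant genes took 51.5% of reads in DKO 2; without it 1085 genes were called higher (8.05%) and 904 lower (6.71%). Of 8 cardiomyocyte markers, Myh6 among them, limma called none (1 at an unadjusted p under 0.05; on whole reads voom 1, edgeR 1 and DESeq2 4 were called), and their summed signal was 51718, 36173 and 59649.7 in DKO and 36398 and 40971 in KO. In all 5 libraries 4 Y-linked genes were detected. In the following, signals stand in the order DKO 1, DKO 2, DKO 3 and KO 1, KO 3. Differences are DKO minus KO on log2(signal + 1) with their standard error, and adjusted p-values are those of limma over all tested genes. Counts of called members of a list are to be read against 6.08% higher and 5.73% lower over all tested genes.

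Vhl mRNA itself (ENSMUSG00000033933, chromosome 6, 113623959 to 113631633, plus strand, GRCm38) was 11.2, 10.9 and 8.61 in DKO and 8.33 and 8.96 in KO, and did not pass the test (log2 difference 0.21 ± 0.18, limma adjusted p = 0.461). A count over the whole gene in whole ventricle checks neither label, since the deleted exons and the share of cells in which Cre acted are unknown here. Hif1a mRNA (ENSMUSG00000021109, chromosome 12, 73901375 to 73947530, plus strand) was 31.4, 22.3 and 27.1 in DKO and 69.7 and 50.3 in KO. All 3 DKO libraries lay below both KO libraries (log2 difference -1.12 ± 0.19, limma adjusted p = 0.00411), and the call ended without KO 1 (adjusted p = 0.0547). Epas1, the gene of HIF-2 alpha, was 319, 324 and 239 in DKO and 262 and 305 in KO, with overlapping groups (log2 difference 0.04, limma adjusted p = 0.904). Egln3, a HIF prolyl hydroxylase that is itself a HIF target, fell from 74.3 and 89.3 in KO to 57.1, 38.9 and 50.3 in DKO (log2 difference -0.75, limma adjusted p = 0.0262). Elob, which encodes the elongin B subunit of the ligase, rose from 116 and 103 to 192, 176 and 219.8 (log2 difference 0.83, limma adjusted p = 0.00973). These were the 3 called genes of 16 tested genes for VHL, HIF subunits and HIF hydroxylases, whose median difference was -0.09; 0 without KO 3 and 3 without DKO 2 were higher, and 1 without KO 1 or KO 3 lower. The call of Egln3 ended without KO 1 or KO 3, and that of Elob without KO 3. With only the DKO and KO libraries in the fit both ended (adjusted p = 0.0829 and 0.059). The call of Elob also ended with mitochondrial transcripts removed (adjusted p = 0.0883) and with a trend of transcript length and GC removed (adjusted p = 0.461).

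Of 49 tested genes of the hypoxia response, 19 fell in DKO and 0 rose, against 5.73% and 6.08% of all genes, and the list's median difference was -0.54. Without KO 3, 9 of them passed, against 1.23% of all genes. The list was known from earlier results of these data, and its counts are a description.

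Transport of glucose and lactate was part of this group. Slc16a3, the lactate exporter MCT4, was 3.98, 2.50 and 3.02 in DKO and 16.7 and 19.2 in KO. Both KO libraries lay far above every DKO library (log2 difference -2.20 ± 0.23, limma adjusted p = 0.000303). Slc2a1, the glucose transporter GLUT1, was 7.98, 6.18 and 7.92 in DKO and 23.7 and 23.6 in KO (log2 difference -1.57 ± 0.18, limma adjusted p = 0.000693). Its KO values lay close together, and no DKO library came near them. Hk2, hexokinase 2, fell from 121 and 156 to 73.5, 47.6 and 90.5 (limma adjusted p = 0.0197), but not without KO 1 or KO 3 (adjusted p = 0.0558 and 0.199).

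Enzymes that modify and crosslink collagen fell as well. Loxl2, a lysyl oxidase that crosslinks collagen, was 13.8, 14.1 and 11.5 in DKO and 69.6 and 63.6 in KO (log2 difference -2.26 ± 0.16, limma adjusted p = 1.42e-05). Lox, the founding member of that family, was 5.03, 3.26 and 2.45 in DKO and 21.8 and 12.8 in KO (log2 difference -1.99 ± 0.27, limma adjusted p = 0.00131). Plod2, a lysyl hydroxylase, fell by 1.27 on the log2 scale (adjusted p = 0.00167), and the prolyl hydroxylase subunits P4ha1 and P4ha2 fell by 0.69 and 0.71 (adjusted p = 0.022 and 0.0221), the former not without KO 1 (adjusted p = 0.136) or KO 3 (adjusted p = 0.123) and the latter not without KO 3 (adjusted p = 0.226).

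The transcriptional repressors Bhlhe40 and Bhlhe41, which also act on the circadian clock, both fell. Bhlhe40 was 27.7, 23.5 and 30.2 in DKO and 86.2 and 65.8 in KO (log2 difference -1.45, limma adjusted p = 0.0011), and Bhlhe41 was 11.3, 9.48 and 13.6 against 32.5 and 29.4 (log2 difference -1.37, limma adjusted p = 0.00126). Adm, the gene of the vasodilator peptide adrenomedullin, was 6.41, 6.37 and 3.77 in DKO and 11.3 and 13.95 in KO (log2 difference -1.09, limma adjusted p = 0.00963), a call that ended without KO 3 (adjusted p = 0.126). Ero1l, an oxidase for disulfide bonds in the endoplasmic reticulum, fell by 0.95 (adjusted p = 0.00416). Loxl2, Slc16a3, Lox, Slc2a1, Bhlhe40, Bhlhe41, Plod2 and Ero1l are among the 9 members that passed in all 8 fits without a library. Other known HIF targets did not pass the test: Vegfa, the vascular endothelial growth factor, was 119, 236 and 229.6 in DKO and 276 and 288 in KO (log2 difference -0.59, limma adjusted p = 0.17), and Pdk1, which holds back pyruvate oxidation, had a difference of -0.67 (adjusted p = 0.127).

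The sequences before the RefSeq start of 4 of the called members are shown because they hold the core of the hypoxia response element, to which HIF binds. The cores ACGTG and GCGTG were searched on both strands in the 250 bases before each gene's start in RefSeq's promoter table (GRCm38.p6); ACGTG is also part of the E-box CACGTG, which other factors bind. A core lay in 38.6% of all 32851 windows. Of the 10431 tested genes with a window, 60.7% held a core in any of their windows. The first share counts windows, and the second and those that follow count genes. The shares were 63.03% for genes called lower, 58.3% for genes called higher and 60.7% for the rest. Among the 19 hypoxia response genes called lower, 12 had a window and all 12 held a core, as did 22 of 25 members not called. Each line gives the 100 bases before the start, 5′ to 3′ on the gene's strand, with the cores in capitals (CACGC is GCGTG read on the other strand): Slc16a3 at chr11:120948967-120949066 on the plus strand, Slc2a1 at chr4:119108645-119108744 on the plus strand, Bhlhe41 at chr6:145865421-145865520 on the minus strand and Adm at chr7:110627557-110627656 on the plus strand. The starts are those of RefSeq. By the gene coordinates used for the other genes here, the windows of Slc16a3 and Bhlhe41 lie inside the gene. That of Slc2a1 spans the gene's start at 119108711. A match describes these letters and is not a measured binding site.
Slc16a3: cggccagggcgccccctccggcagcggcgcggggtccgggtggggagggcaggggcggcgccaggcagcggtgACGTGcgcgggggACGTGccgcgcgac
Slc2a1: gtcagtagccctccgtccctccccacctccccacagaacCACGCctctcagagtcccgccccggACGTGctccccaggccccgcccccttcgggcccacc
Bhlhe41: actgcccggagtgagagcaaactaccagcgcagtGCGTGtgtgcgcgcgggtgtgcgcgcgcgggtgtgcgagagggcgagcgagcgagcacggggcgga
Adm: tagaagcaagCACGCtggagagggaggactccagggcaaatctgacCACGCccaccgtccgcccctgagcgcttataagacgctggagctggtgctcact

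Genes of the stressed ventricle made up the list with the lowest median. Of 33 tested genes 20 fell in DKO and 0 rose, with a median difference of -1.47, and 13 passed in every fit without a library. Myh7, the beta myosin heavy chain (ENSMUSG00000053093, chromosome 14, 54970684 to 54994626, minus strand), was 51.2, 40.7 and 81.1 in DKO and 1207 and 1219 in KO (log2 difference -4.43 ± 0.27, limma adjusted p = 6.33e-06). The 2 KO libraries nearly coincided, and every DKO library lay far below them. Ankrd1, a mechanosensitive repeat protein of the sarcomere and nucleus, was 201, 203 and 664 in DKO and 3156 and 2068 in KO (log2 difference -3.09 ± 0.46, limma adjusted p = 0.00226). DKO 3 was the highest DKO library for both genes and still lay below both KO libraries. Gdf15, a secreted stress cytokine, was 0.758, 2.03 and 1.87 in DKO and 19.1 and 14.4 in KO (log2 difference -2.82 ± 0.26, limma adjusted p = 0.000143). Myot, a Z-disc protein, was 2.51, 2.60 and 10.3 against 38.3 and 29.8 (log2 difference -2.74, limma adjusted p = 0.00226), and Nmrk2, a kinase of the NAD salvage pathway in muscle, had a difference of -2.67 (adjusted p = 0.000303).

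Nppa encodes atrial natriuretic peptide and was 245, 194 and 428 in DKO and 2423 and 1624 in KO (log2 difference -2.85 ± 0.35, limma adjusted p = 0.000892). It lies on chromosome 4 beside Nppb, the gene of B-type natriuretic peptide, which was 21.4, 109 and 228 in DKO and 655 and 235 in KO. For Nppb the groups nearly touched at DKO 3 and KO 3, and the difference did not pass the test (log2 difference -2.25 ± 0.71, limma adjusted p = 0.0621). Nppa is also abundant in atrium, and the part of atrial tissue in its difference was not tested; the atrial markers Myl7 and Myl4 split within both groups. Myl7 was 16.1, 6.37 and 0.374 in DKO and 26.6 and 0.988 in KO, and Myl4 was 21.9, 11.5 and 2.39 against 33.6 and 2.48. DKO 1 and KO 1 were high and DKO 3 and KO 3 low for these markers. Of 6 atrial markers 5 were in the table and 1 of them, Stard10, a lipid transfer protein, was called, at 80.2, 46.8 and 34.9 in DKO and 13.8 and 14.3 in KO (log2 difference 1.79, limma adjusted p = 0.00225).

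Other members that fell in every fit without a library were Tnfrsf12a, the receptor of the cytokine TWEAK (-2.49), and Uck2, a pyrimidine salvage kinase (-2.18). The same held for Ccn2, connective tissue growth factor (-2.08), Rcan1, a calcineurin inhibitor whose short form is induced by calcineurin (-1.97), Synpo2l, a Z-disc protein (-1.91), and Enah, an actin regulator (-1.35). Uck2 was 17.2, 16.8 and 24.2 in DKO and 102 and 79.7 in KO, and Synpo2l 101, 74.9 and 138 against 475 and 311, with no overlap in either. Acta1, the skeletal alpha actin that ventricles re-express under load, was 60.3, 111 and 860.4 in DKO and 2393 and 1564 in KO. DKO 3 stood far above the other DKO libraries for this gene (log2 difference -3.42 ± 0.80, limma adjusted p = 0.0181), and the call ended without KO 1 or KO 3 (adjusted p = 0.125 and 0.101).

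**Figure D2:**
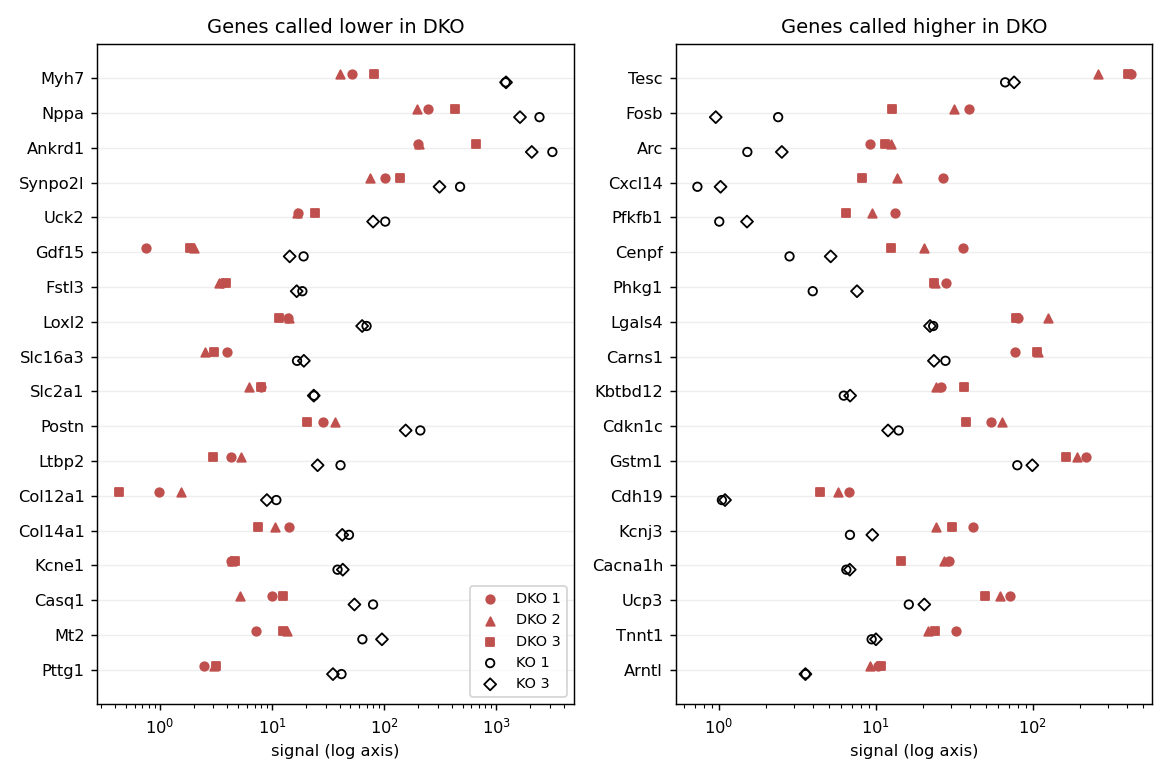
Signal on a log axis of 36 genes called in the comparison, 18 lower (left) and 18 higher in DKO (right), 1 point per library: filled red symbols for DKO 1, 2 and 3 and open black symbols for KO 1 and KO 3. In each row all 3 DKO points lie on the same side of both KO points, as in 1598 of the 1599 called genes.

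Of 29 sarcomere and Z-disc genes 17.2% were called, against 11.8% of all genes, 4 lower and 1 higher, with a median of -0.08. Higher calls were 2 without DKO 1 and 6 without DKO 2, and lower calls 2 without KO 1 or KO 3. Myh6, the adult alpha myosin heavy chain, was 19907, 14517 and 23126 in DKO and 11073 and 14230.2 in KO and did not pass (log2 difference 0.59, limma adjusted p = 0.473). Besides Myh7 and Acta1, Pdlim5, a Z-disc scaffold, fell from 461 and 425 to 182, 135 and 240.3 (log2 difference -1.29, limma adjusted p = 0.00459) and Lmod2, an actin nucleator, from 217 and 315 to 99.3, 62.1 and 181 (log2 difference -1.32, limma adjusted p = 0.0312), the latter not without C 3 (adjusted p = 0.051), DKO 1 (adjusted p = 0.0511), KO 1 (adjusted p = 0.076) or KO 3 (adjusted p = 0.261). Tnnt1, the slow skeletal troponin T, was the member that rose, from 9.39 and 10.002 to 32.2, 21.5 and 23.8 (log2 difference 1.31, limma adjusted p = 0.00167).

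Among 19 calcium handling genes 2 rose and 3 fell, against 6.08% and 5.73% of all genes, with 6 lower calls without DKO 3. Fewer were called without KO 1 or KO 3. The median difference was -0.20, and -0.18 without KO 1 and -0.02 without KO 3. Tesc, which encodes the calcium-binding protein tescalcin, was 421, 259.95 and 402 in DKO and 66.6 and 75.9 in KO (log2 difference 2.30 ± 0.22, limma adjusted p = 0.000197). Casq1, the skeletal calsequestrin, was 9.95, 5.14 and 12.5 in DKO and 79.6 and 54.3 in KO (log2 difference -2.78 ± 0.29, limma adjusted p = 0.000281). Tesc and Casq1 moved in opposite directions, each with a wide gap between the groups, and both passed in all 8 fits without a library.

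Of 28 ion channel and conduction genes 3 were called higher and 3 lower, against 6.08% and 5.73% of all genes. Fewer were called lower without KO 3. The median difference was -0.17, and -0.02 without KO 3. Kcne1, the accessory subunit of the slow delayed rectifier potassium channel, was 4.30, 4.39 and 4.64 in DKO and 38.4 and 42.8 in KO (log2 difference -2.93 ± 0.26, limma adjusted p = 0.000143). Kcnj3, a subunit of the acetylcholine-gated potassium channel, was 41.3, 24.3 and 30.7 in DKO and 6.83 and 9.48 in KO (log2 difference 1.84 ± 0.22, limma adjusted p = 0.000809). Cacna1h, a T-type calcium channel of the fetal ventricle, was 29.1, 27.3 and 14.4 against 6.48 and 6.81 (log2 difference 1.62, limma adjusted p = 0.00388), and Kcnv2, a silent potassium channel subunit, 7.19, 6.09 and 8.90 against 1.08 and 2.79 (log2 difference 1.57, limma adjusted p = 0.00392). Kcnq1, which forms the channel that Kcne1 joins, had a difference of -0.52 (adjusted p = 0.12).

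Of 22 genes of adrenergic, endothelin, natriuretic and renin-angiotensin signalling, 5 fell and 2 rose, and the median was 0.16, or -0.20 with mitochondrial transcripts removed. Lower calls were 0 without KO 3 and 2 without KO 1, and higher calls 0 without KO 1 and 1 without KO 3. The beta-1 adrenergic receptor Adrb1 fell from 21.7 and 19.9 to 8.34, 9.58 and 12.4 (log2 difference -0.99, limma adjusted p = 0.00807), the endothelin receptor Ednra from 23.9 and 31.7 to 12.4, 11.8 and 12.01 (log2 difference -1.12, limma adjusted p = 0.00325) and angiotensin-converting enzyme Ace from 86.98 and 87.03 to 55.2, 53.1 and 40.1 (log2 difference -0.82, limma adjusted p = 0.0116). The natriuretic peptide receptor Npr1 rose from 26.9 and 26.9 to 44.4, 73.7 and 46.3 (log2 difference 0.96, limma adjusted p = 0.012) and angiotensinogen, Agt, from 1.36 and 2.20 to 4.85, 4.58 and 5.96 (log2 difference 1.15, limma adjusted p = 0.00619). So the receptor of Nppa's product moved opposite to Nppa. None of these passed in all 8 fits: the call of Adrb1 ended without KO 1 (adjusted p = 0.0706) or KO 3 (adjusted p = 0.0657), that of Ednra without KO 3 (adjusted p = 0.0605) and that of Ace without KO 1 (adjusted p = 0.077) or KO 3 (adjusted p = 0.102). The call of Npr1 ended without KO 1 (adjusted p = 0.0788) or KO 3 (adjusted p = 0.104) and that of Agt without KO 1 (adjusted p = 0.0736). Tbx20 was the called gene among 17 cardiac transcription factors, at 25.6, 18.6 and 21.4 in DKO and 53.3 and 50.3 in KO (log2 difference -1.22, limma adjusted p = 0.00226), and 2 without DKO 3 and 3 without KO 1 were lower; Gata4, another factor of the heart muscle programme, had a difference of -0.32 (adjusted p = 0.253).

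Of 24 collagen genes 15 fell and 2 rose, with a median of -0.76; of 38 matrix glycoproteins and proteoglycans 13 fell and 1 rose, with a median of -0.50. Of 32 genes of crosslinking and turnover, which share members such as Loxl2, Lox, Plod2, P4ha1 and P4ha2 with the hypoxia list, 11 fell and 2 rose, with a median of -0.61. The counts of lower genes depended on the libraries: for collagens they were 5 without KO 1 or KO 3 and 9 without C 2, for glycoproteins 4 without KO 1 and 6 without KO 3, and for crosslinking and turnover 6 without KO 3 and 7 without KO 1. The genes called higher were 1 without KO 3 for collagens, 0 without C 1, C 2, KO 1 or KO 3 for glycoproteins and 0 without KO 1 and 1 without C 1, C 2, DKO 2 or KO 3 for crosslinking and turnover. In bulk tissue fewer cells of a type and less RNA per cell cannot be told apart.

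The called collagens included several types beside the fibrillar ones. Col12a1, a collagen that lies on fibril surfaces, was 0.988, 1.56 and 0.432 in DKO and 10.9 and 8.996 in KO; it passed the filter on low values mainly through KO, and no test is given. Col14a1, of the same kind, was 14.1, 10.7 and 7.46 against 48.5 and 42.3 (log2 difference -2.02 ± 0.25, limma adjusted p = 0.000809). Both were several-fold higher in KO in every pairing of libraries. Col8a1, a short-chain collagen, fell from 53.4 and 32.02 to 11.6, 11.6 and 12.2 (log2 difference -1.73, limma adjusted p = 0.00151), and Col18a1, the basement membrane collagen that holds endostatin, from 61.98 and 80.2 to 25.8, 26.2 and 14.4 (log2 difference -1.68, limma adjusted p = 0.00277). Col4a3, a basement membrane collagen, had a difference of -1.33 (adjusted p = 0.00368). Col6a6, a beaded-filament collagen, went the other way, at 10.6, 6.75 and 4.18 in DKO and 0.768 and 1.13 in KO (log2 difference 2.00 ± 0.29, limma adjusted p = 0.00178).

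The fibrillar collagens of scar tissue had smaller differences. Col1a1 was 129, 112 and 54.8 in DKO and 258 and 229 in KO (log2 difference -1.39, limma adjusted p = 0.0114), and Col3a1 259, 231 and 129 against 500.00 and 383 (log2 difference -1.14, limma adjusted p = 0.0195). DKO 3 was the lowest library for both. Their calls ended without KO 1 (adjusted p = 0.0873 and 0.154) and without KO 3 (adjusted p = 0.0848 and 0.083).

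Postn, the gene of periostin, which activated fibroblasts secrete, was 28.3, 36.7 and 20.5 in DKO and 209.9 and 155 in KO (log2 difference -2.66 ± 0.28, limma adjusted p = 0.00033). Ltbp2, a latent TGF-beta binding protein of microfibrils, was 4.30, 5.33 and 2.97 against 40.8 and 25.5 (log2 difference -2.70 ± 0.26, limma adjusted p = 0.000209). In both genes the lowest KO library stood several-fold above the highest DKO library. Mfap5, another microfibril protein, was 20.8, 30.9 and 17.6 against 68.3 and 54.1 (log2 difference -1.40, limma adjusted p = 0.00379). The large proteoglycan Vcan (versican) fell from 26.7 and 17.04 to 10.6, 9.39 and 5.79 (log2 difference -1.25, limma adjusted p = 0.00845) and the elastic fibre protein Fbln2 from 132 and 149 to 62.3, 84.8 and 51.5 (log2 difference -1.10, limma adjusted p = 0.00684), but the call of Vcan ended without KO 1 (adjusted p = 0.101) and that of Fbln2 without KO 3 (adjusted p = 0.0902). The abundant small proteoglycan Dcn (decorin) did not pass, with a difference of 0.05 (adjusted p = 0.947). Among proteases and inhibitors, the procollagen peptidase Adamts2 fell from 48.7 and 48.4 to 25.2, 20.2 and 13.6 (log2 difference -1.30, limma adjusted p = 0.00389), while the metalloproteinases Mmp2 (-0.53) and Mmp14 (-0.89) did not pass.

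Signals that act on matrix-producing cells fell in part. Of 21 tested TGF-beta and BMP pathway genes 9 fell and 0 rose, with a median of -0.58 (3 without KO 1 and 5 without KO 3). Among the ligands and their traps, Tgfb2 fell from 21.9 and 11.01 to 6.60, 4.29 and 4.81 (log2 difference -1.43, limma adjusted p = 0.0066), and Inhba, the activin A subunit, from 5.29 and 4.25 to 1.17, 1.37 and 1.12 (log2 difference -1.37, limma adjusted p = 0.00392). The activin trap Fstl3 was 3.56, 3.35 and 3.89 in DKO and 18.6 and 16.6 in KO (log2 difference -2.02 ± 0.19, limma adjusted p = 0.000202). Fstl3 showed tight groups with no overlap, and like Gdf15 it passed in all 8 fits without a library. The call of Tgfb2 ended without KO 1 (adjusted p = 0.0803) and that of Inhba without KO 1 (adjusted p = 0.0531). The inhibitory Smad7, itself a target of the pathway, fell from 29.6 and 42.7 to 18.6, 18.3 and 10.9 (log2 difference -1.15, limma adjusted p = 0.00963), but not without KO 3 (adjusted p = 0.141). Tgfb1 (0.16, adjusted p = 0.61) and Tgfb3 (-0.22, adjusted p = 0.432) did not pass.

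Of 19 Wnt pathway genes 6 fell and 0 rose (median -0.57), led by the ligand Wnt5b, at 1.26, 1.93 and 0.663 in DKO and 7.30 and 5.15 in KO (log2 difference -1.68, limma adjusted p = 0.00432). Lower calls were 1 without KO 1 or KO 3 and 3 without C 1, C 2 or C 3, 1 gene was higher without DKO 3, and the call of Wnt5b ended without KO 1 (adjusted p = 0.061). In the list of 24 angiogenic genes 4 fell and 1 rose, with lower calls of 2 without KO 3 and higher calls of 0 without KO 1 or KO 3 and 3 without DKO 2 or DKO 3. The endothelial tip cell gene Esm1 was 0.896, 1.65 and 1.12 in DKO and 10.4 and 4.97 in KO (log2 difference -1.90 ± 0.31, limma adjusted p = 0.00341). Apln, the gene of the peptide apelin, fell from 28.05 and 24.9 to 10.4, 13.3 and 12.9 (log2 difference -1.06, limma adjusted p = 0.00313), and Pgf, placental growth factor, from 25.8 and 21.3 to 7.24, 12.9 and 4.29 (log2 difference -1.53, limma adjusted p = 0.00991). Esm1 and Apln passed in all 8 fits, and the call of Pgf ended without KO 1 (adjusted p = 0.0868) or KO 3 (adjusted p = 0.0706). Kdr, the main VEGF receptor of endothelium, had a difference of 0.45 (adjusted p = 0.274).

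Cytokines and chemokines gave 4 genes higher and 1 lower of 23. Higher calls were 2 without KO 3 and 7 without DKO 3, and lower calls 0 without C 1, C 2, C 3, DKO 2, DKO 3, KO 1 or KO 3 and 2 without DKO 1. Cxcl14, a chemokine of epithelia and fibroblasts, was 26.7, 13.6 and 8.21 in DKO and 0.728 and 1.02 in KO (log2 difference 3.05 ± 0.38, limma adjusted p = 0.000867). The 3 DKO values spread widely, and the lowest was still well above both KO values. Il15, which sustains natural killer and memory T cells, rose from 5.53 and 7.68 to 25.9, 14.2 and 17.5 (log2 difference 1.38, limma adjusted p = 0.00455) and Cxcl9, an interferon-gamma target, from 3.76 and 3.07 to 9.68, 9.39 and 7.0001 (log2 difference 1.13, limma adjusted p = 0.0106), the former not without KO 1 (adjusted p = 0.0558) and the latter not without KO 3 (adjusted p = 0.118). Stat3, which transmits cytokine signals of the interleukin-6 family, fell from 124 and 136 to 57.2, 61.3 and 60.2 (log2 difference -1.12, limma adjusted p = 0.00136).

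Of 73 tested nuclear genes of oxidative phosphorylation 34 rose and 0 fell, with a median difference of 0.71. Ndufb2, a subunit of complex I, was 309, 287 and 381 in DKO and 133 and 113 in KO (log2 difference 1.39 ± 0.19, limma adjusted p = 0.0016), and was the member that passed in all 8 fits without a library. Cox7a1, the muscle form of a complex IV subunit, was 590.1, 498 and 689.6 against 264 and 211 (log2 difference 1.31, limma adjusted p = 0.00324), and Atp5e, of the ATP synthase, 711, 716 and 773 against 338 and 227 (log2 difference 1.40, limma adjusted p = 0.00342). DKO 3 was the highest library for Ndufb2 and Cox7a1, and both KO libraries lay below all DKO libraries. Without KO 3 the calls of Cox7a1 and Atp5e ended. That of Cox7a1 also ended with a trend of transcript length and GC removed (adjusted p = 0.0589). The number of higher genes was 22 without C 2, 63 without DKO 2, 18 without KO 1 and 1 without KO 3. With mitochondrial transcripts removed and the rest rescaled, 15 rose and 1 fell, and the median was 0.34 against -0.32 for all genes.

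All 15 transcripts of the mitochondrial genome itself had positive differences (median 1.74), and 6 rose. mt-Co3, a core subunit of complex IV, was 11919, 25744 and 16298 in DKO and 4089.97 and 2142 in KO (log2 difference 2.53 ± 0.53, limma adjusted p = 0.0116). DKO 2, the library with the largest mitochondrial share, was the highest, and the call of mt-Co3 ended without KO 3 (adjusted p = 0.163). Counts of higher genes in this group were 10 without DKO 1, 11 without DKO 2, 2 without KO 1 and 0 without KO 3.

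Short transcripts were called higher in DKO more often than long ones. Spearman's rho between transcript length and the log2 difference was -0.20 over 13533 genes, and between GC content and the difference 0.18; genes are not independent replicates and no p is given. In single pairs of a DKO and a KO library rho with length lay between -0.29 and -0.02, and was nearest 0 for DKO 2 against KO 1. Of 5 groups of equal size by length, the shortest had 13.4% called higher and 3.47% lower, and the longest 3.44% and 8.61%. The median transcript length was 983 bases for the oxidative phosphorylation list and 1100 for 76 cytosolic ribosomal protein genes, of which 50 rose and 0 fell (median 0.76). Of the latter 29 without C 2 and 0 without KO 3 rose, and with mitochondrial transcripts removed 13 rose and 2 fell. Of 78 mitochondrial ribosomal protein genes 10 rose and 0 fell (median 0.24), with higher calls of 0 without KO 3, 5 without KO 1, 6 without C 2 and 33 without DKO 2; with mitochondrial transcripts removed 1 rose and 3 fell (median -0.09). Of 37 proteasome genes 1 rose and 2 fell, and 8.1% were called, against 11.8% of all genes. Higher calls were 0 without C 2, C 3 or DKO 1, 2 without DKO 3 and 3 without DKO 2. Lower calls were 0 without C 1, C 2 or C 3. All calls of the list ended without KO 1 or KO 3. With a trend of length and GC removed from each library, 4.97% of all genes were called higher, 16 of the oxidative phosphorylation genes and 28 of the ribosomal protein genes, and the medians of the lists were 0.46 and 0.48. The part of length in both lists was not tested beyond these values. The hypoxia response and cardiac stress lists, with median lengths of 3678 and 2228 bases, had 19 and 21 lower genes with the trend removed.

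**Figure D3:**
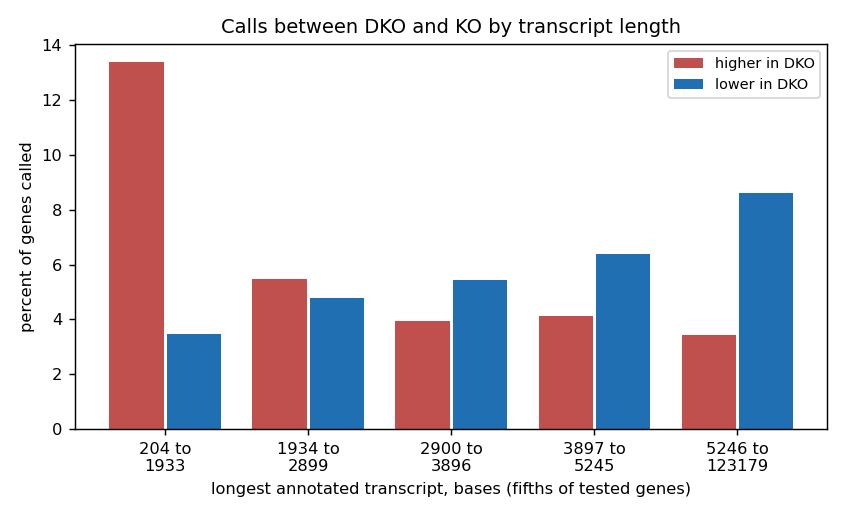
Percent of tested genes called higher (red) and lower (blue) in DKO, in 5 groups of equal size by the length in bases of the longest annotated transcript. The shortest group has 13.4% called higher and 3.47% called lower, and the longest 3.44% and 8.61%.

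Of 39 genes of fatty acid uptake and oxidation 6 were called higher and 0 lower, with a median of 0.22. Ucp3, an uncoupling protein of muscle induced by fatty acids, was 71.6, 61.4 and 49.5 in DKO and 16.2 and 20.3 in KO (log2 difference 1.67 ± 0.21, limma adjusted p = 0.000867). It passed in all 8 fits without a library, and all 3 DKO libraries lay far above both KO libraries. The transport step into mitochondria did not pass, with Cpt1b at 0.42 (adjusted p = 0.224) and Cpt2 at 0.23 (adjusted p = 0.582). Higher calls in the list were 3 without KO 1 or KO 3 and 13 without DKO 2, and lower calls 1 without C 3 or KO 1. The median was 0.05 without KO 1, and with the rescaling after removal of mitochondrial transcripts its median turned to -0.16, still above that of all genes.

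Glycolysis and lactate genes gave 6 lower and 1 higher of 26, with lower calls of 2 without KO 3 and higher calls of 4 without DKO 2. Beside Slc16a3, Slc2a1 and Hk2, the platelet-type phosphofructokinase Pfkp fell from 85.6 and 95.9 to 43.6, 46.7 and 49.7 (log2 difference -0.94, limma adjusted p = 0.00323), but not without KO 3 (adjusted p = 0.05). Pfkfb1, the liver and muscle form of the enzyme that sets the level of its allosteric activator, rose from 1.004 and 1.51 to 13.3, 9.39 and 6.42 (log2 difference 2.20 ± 0.26, limma adjusted p = 0.000704). The later enzymes of the pathway did not pass, among them Ldha (-0.18, adjusted p = 0.631) and Pgk1 (-0.41, adjusted p = 0.339). Of 31 genes of pyruvate oxidation and the TCA cycle limma called none (5 at an unadjusted p under 0.05), nor did voom and edgeR, while DESeq2 called 2; the median was -0.14. The mean difference of this list from KO was 0.14, -0.60 and 0.25 in the DKO libraries in order, and when DKO 2 was left out 4 genes rose.

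Of 29 cell cycle genes 10 were called lower and 1 higher (median -0.58), with lower calls of 2 without KO 3 and 3 without KO 1. Cdkn1a, the cyclin-dependent kinase inhibitor p21, was 17.5, 20.8 and 13.3 in DKO and 45.8 and 54.1 in KO (log2 difference -1.50 ± 0.21, limma adjusted p = 0.00155), and the D-type cyclin Ccnd2 fell by 1.12 (adjusted p = 0.00151). An inhibitor and an activator of the cycle thus both fell, in all 8 fits without a library. Mki67 and Top2a, which mark dividing cells, were 2.55, 4.39 and 5.39 against 10.8 and 8.89 (log2 difference -1.13, limma adjusted p = 0.0118) and 1.72, 1.93 and 1.35 against 5.18 and 6.26 (log2 difference -1.33, limma adjusted p = 0.00825). Without KO 3 their adjusted p-values were 0.0737 and 0.108, and that of Mki67 was 0.109 without KO 1. Cenpf, a kinetochore protein, moved the other way, at 35.9, 20.1 and 12.5 in DKO and 2.81 and 5.15 in KO (log2 difference 2.18 ± 0.34, limma adjusted p = 0.00304).

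Pttg1, the gene of securin, which holds separase inactive until anaphase, belongs to none of the lists. It was 2.46, 3.07 and 3.14 in DKO and 41.6 and 34.9 in KO (log2 difference -3.34 ± 0.21, limma adjusted p = 6.33e-06). The 3 DKO values lay close together and so did the KO values. Cdkn1c, the imprinted inhibitor p57, rose from 13.96 and 11.9 to 54.4, 63.5 and 37.5 (log2 difference 1.89 ± 0.23, limma adjusted p = 0.000809). Of 17 genes of IGF signalling and fetal growth 5 rose and 2 fell. Higher calls were 1 without KO 1, 2 without DKO 2 or KO 3 and 3 without C 1, C 2, C 3 or DKO 1, and lower calls 0 without KO 1 or KO 3 and 4 without DKO 2. Igf2 and H19, which lie in the same imprinted region as Cdkn1c, rose as well, Igf2 from 15.5 and 26.6 to 130.4, 87.7 and 32.1 (log2 difference 1.77, limma adjusted p = 0.0259) and H19 from 4.59 and 23.9 to 121, 53.1 and 21.5 (log2 difference 2.16, limma adjusted p = 0.0479). Both spread widely within DKO, and in H19 the groups overlapped at KO 3 and DKO 3. The call of Igf2 ended without DKO 2 (adjusted p = 0.0588), KO 1 (adjusted p = 0.195) or KO 3 (adjusted p = 0.0864), and that of H19 without C 1 (adjusted p = 0.0607), C 2 (adjusted p = 0.0648), C 3 (adjusted p = 0.0669), DKO 1 (adjusted p = 0.0891), DKO 2 (adjusted p = 0.0862) or KO 1 (adjusted p = 0.388).

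Stress pathways inside the cell moved in part. Of 22 integrated stress response genes 6 fell and 0 rose, among them Gdf15 and the amino acid transporter Slc7a5, at 2.78, 3.54 and 3.20 in DKO and 9.59 and 10.6 in KO (log2 difference -1.41, limma adjusted p = 0.00138). The list's lower calls were 2 without KO 3 and 3 without C 2, C 3, DKO 1 or DKO 3. Atf4, the transcription factor at the centre of that response, had a difference of -0.23 (adjusted p = 0.428). Among 18 heat shock genes 3 fell and 1 rose, against 5.73% and 6.08% of all genes. Lower calls were 5 without DKO 3 and higher calls 2 without DKO 2, and fewer were called without KO 1 or KO 3. Among the called genes the co-chaperone Dnajb4 had the largest difference, at 22.7, 18.2 and 32.8 against 68.8 and 77.5 (log2 difference -1.57 ± 0.21, limma adjusted p = 0.00138). Of 24 antioxidant and metallothionein genes 6 fell and 3 rose, with lower calls of 1 without KO 1 or KO 3 and higher calls of 1 without KO 3. Mt2, which encodes the zinc-binding metallothionein 2, was 7.24, 13.7 and 12.5 in DKO and 63.9 and 95.5 in KO (log2 difference -2.75 ± 0.27, limma adjusted p = 0.000209), whereas the glutathione transferase Gstm1 rose from 79.6 and 99.2 to 218, 189.7 and 162 (log2 difference 1.08, limma adjusted p = 0.00379). Mt2 was lower in every DKO library by a wide gap, and Gstm1 was higher in every one.

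Immediate early genes, which also respond within minutes to how tissue is handled, split into both directions, with 4 of 27 higher and 5 lower. Higher calls were 2 without KO 3, and lower calls 3 without KO 3 and 9 without DKO 2. Fosb was 39.2, 31.5 and 12.6 in DKO and 2.38 and 0.953 in KO (log2 difference 3.35 ± 0.39, limma adjusted p = 0.000693), and Arc was 9.12, 12.5 and 11.4 against 1.52 and 2.51 (log2 difference 2.00 ± 0.22, limma adjusted p = 0.000348). DKO 3 was the lowest DKO library for Fosb and still far above both KO libraries. Fos rose from 11.5 and 7.37 to 59.2, 35.6 and 27.9 (log2 difference 1.97, limma adjusted p = 0.00807) and Egr1 from 19.5 and 11.4 to 80.9, 67.6 and 31.6 (log2 difference 1.83, limma adjusted p = 0.0133), neither without KO 3 (adjusted p = 0.108 and 0.166). Ier3 fell from 61.3 and 47.3 to 18.3, 13.8 and 13.7 (log2 difference -1.77 ± 0.18, limma adjusted p = 0.000273) and Fosl2 by 1.28 (adjusted p = 0.00352). Nr4a3 fell from 3.84 and 4.21 to 0.391, 0.708 and 0.605. Every DKO value of Nr4a3 was under 1 and cannot be told from the floor of log2(signal + 1). The size of its difference is uncertain, and no test is given. Of 19 circadian clock genes 3 fell (5 without KO 1) and 1 rose: beside Bhlhe40 and Bhlhe41, Arntl, the clock activator BMAL1, was 10.3, 9.11 and 10.8 in DKO and 3.56 and 3.55 in KO (log2 difference 1.28 ± 0.21, limma adjusted p = 0.00345). Per1 and Per2, which peak out of phase with Arntl, had differences of -1.30 (adjusted p = 0.0867) and -1.14 (adjusted p = 0.0748). The time of day of collection is unknown here, and its part was not tested.

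Limma called none of 15 mural cell genes (5 at an unadjusted p under 0.05), 7 MHC class II genes (1) and 8 erythroid and haem genes (0), and on whole reads voom called 1 MHC class II gene while edgeR and DESeq2 called none. The summed signal of the 8 erythroid and haem genes was 2338, 6882 and 3471 in DKO and 2711 and 2953 in KO. It was highest in DKO 2, and the part of blood in that library was not tested. With a library left out, the mural list had 3 without DKO 3 called higher and 2 without DKO 2 called lower. In limma's fit 1 was called, higher, among 18 endothelial, 21 macrophage, 10 lymphocyte and 5 neutrophil genes each; the endothelial count was 0 without C 3, DKO 2, KO 1 or KO 3 and 2 without DKO 3, the macrophage count 0 without DKO 1, KO 1 or KO 3 and 2 without DKO 3, the lymphocyte count 0 without C 3, DKO 2 or KO 3 and 2 without DKO 1 and the neutrophil count 0 without C 1, C 2, KO 1 or KO 3 and 3 without DKO 1. In the fibroblast list of 20, 4 fell (Col1a1, Col1a2, Col3a1 and Mfap5) and 1 rose, Dpep1, a membrane dipeptidase, from 10.9 and 15.8 to 60.6, 31.8 and 21.7 (log2 difference 1.34, limma adjusted p = 0.025). The call of Dpep1 ended without KO 1 (adjusted p = 0.184) or KO 3 (adjusted p = 0.0921), and the list had lower calls of 1 without KO 1 or KO 3 and higher calls of 0 without KO 1 or KO 3, 2 without DKO 1 and 4 without DKO 3. The identity markers Pdgfra (0.62, adjusted p = 0.0652) and Tcf21 (-0.26, adjusted p = 0.624) did not pass. The call of Col1a2 ended without C 2 (adjusted p = 0.0518), KO 1 (adjusted p = 0.173) or KO 3 (adjusted p = 0.149). The list's summed signal was 4004, 2889.9 and 1725 in DKO and 2869.9 and 2307 in KO, with overlapping groups. The median difference of the fibroblast list was -0.05, and the part of fibroblast number in the matrix genes was not tested.

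The epicardium, where Wt1-driven Cre acts, was represented by 11 tested markers, of which limma called 4 lower and 1 higher. Lower calls were 0 without KO 1 and 1 without KO 3, and higher calls 0 without KO 1 or KO 3 and 2 without DKO 3. Wt1 was 4.85, 6.46 and 3.60 in DKO and 7.62 and 7.02 in KO, with no overlap but no call (log2 difference -0.51 ± 0.26, limma adjusted p = 0.214). The keratin genes Krt19 and Krt18 are 2 of the 4 genes called lower; Krt19 was 0.712, 0.519 and 0.259 in DKO and 5.53 and 9.41 in KO, and Krt18 0.437, 0.330 and 0.374 against 3.84 and 2.44. Both were under 1 in every DKO library and passed the filter on low values through KO alone, so their values are a description and no test is given. C3, complement component 3, rose from 23.1 and 20.9 to 113, 71.4 and 35.0003 (log2 difference 1.54, limma adjusted p = 0.0168), but not without KO 1 or KO 3 (adjusted p = 0.0838 and 0.14).

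Of 11 nerve and glial markers 7 were called higher and 1 lower (median 1.22), with higher calls of 2 without KO 1 and 3 without KO 3 and lower calls of 0 without KO 1. Cdh19, a cadherin of Schwann cell precursors, was 6.78, 5.71 and 4.41 in DKO and 1.04 and 1.09 in KO (log2 difference 1.67 ± 0.22, limma adjusted p = 0.00115). Sox10, a transcription factor of Schwann cells, was 6.37, 5.52 and 1.58 against 0.492 and 0.815 (log2 difference 1.60, limma adjusted p = 0.0176), with DKO 3 nearest KO. Both KO values of Sox10 were under 1, near the floor of log2(signal + 1), and its call ended without KO 1 or KO 3. Among the called genes of the list DKO 3 was the library nearest KO in 7 of 8. Adipocyte genes gave 2 of 10 called higher, Lipe, a lipase of fat stores, and Cfd (higher calls 0 without KO 1 or KO 3, 1 without DKO 2 and 7 without DKO 3), and the list's summed signal was 1037, 1283 and 736 in DKO and 631 and 607 in KO. The call of Lipe ended without KO 1 or KO 3, and with mitochondrial transcripts removed (adjusted p = 0.137). It also ended with only the DKO and KO libraries in the fit (adjusted p = 0.0784). Cfd, the adipocyte serine protease adipsin, was 12.99, 6.46 and 0.893 in DKO and 0.0590 and 0.0173 in KO. Both KO values lay near the floor of log2(signal + 1), so its values are a description and no test is given. The call of Cfd ended without DKO 2, KO 1 or KO 3. It also ended with a trend of transcript length and GC removed and with voom. Of 10 genes of fast skeletal muscle, such as Myh4 and Tnni2, limma called none (3 at an unadjusted p under 0.05; on whole reads voom 0, edgeR 4 and DESeq2 7 were called), and their summed signal was 15.6, 20.2 and 8.99 in DKO and 1.97 and 1.66 in KO, so that every DKO library lay above both KO libraries. Every KO value of the 10 fast muscle genes was under 1, near the floor of log2(signal + 1). In a list of 16 skeletal muscle genes 0 were called higher and 2 lower. The median difference of that list was 0.64, with 13 genes positive and 3 negative. The parts of the tissue dissected and of these cells in the results were not tested.

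**Figure D4:**
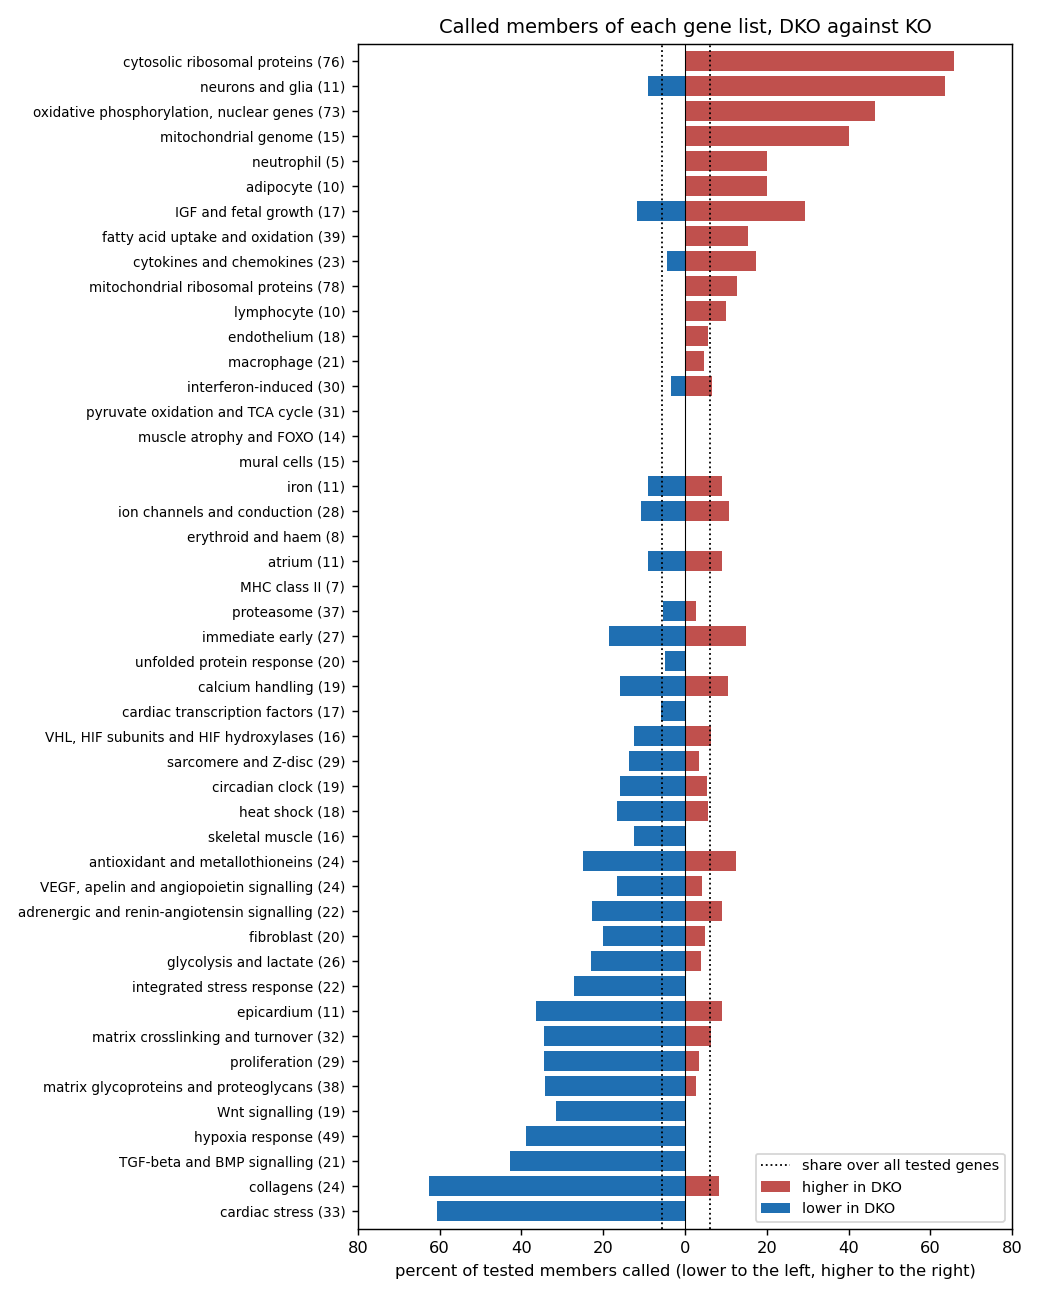
Percent of the tested members of each gene list called higher (red, right) and lower (blue, left) in DKO, with the number tested in brackets; dotted lines mark the shares over all tested genes, 6.08% higher and 5.73% lower. Cardiac stress and collagens lie at the lower end, cytosolic ribosomal proteins at the upper.

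The 3 DKO libraries did not sit at the same distance from KO. The median SD of a gene on the log2 scale was 0.258 in DKO and 0.137 in KO. For the hypoxia response the mean difference from KO was -0.61, -0.70 and -0.65 in DKO 1, 2 and 3, nearly the same in each. For cardiac stress it was -1.79, -1.77 and -1.22, and DKO 3 was the library nearest KO in 14 of the 20 genes called. In collagens it was -0.53, -0.44 and -0.97 and for matrix glycoproteins -0.32, -0.34 and -0.98, and DKO 3 was the lowest library there. The fibroblast list was also lowest in DKO 3 (0.14, 0.04 and -0.59), and so was the endothelial list (0.46, 0.63 and -0.28). Oxidative phosphorylation was least raised in DKO 2 (0.80, 0.33 and 0.95), which was the nearest library in 32 of the 34 genes called, while the mitochondrial genome was most raised there (0.92, 2.48 and 1.75). With 3 libraries these orders are a description of the libraries.

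**Figure D5:**
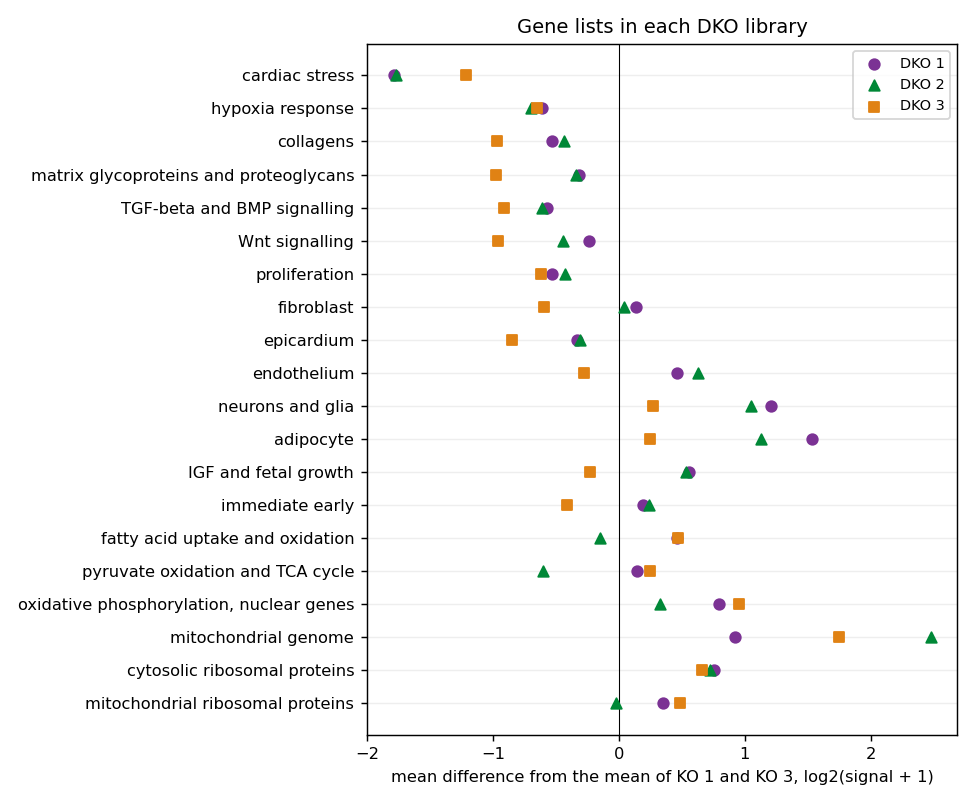
Mean over the tested members of a list of the difference between 1 DKO library and the mean of KO 1 and KO 3, on log2(signal + 1), with 1 symbol per DKO library and a line at 0. Hypoxia response points nearly coincide, from -0.61 to -0.70, while DKO 3 lies apart for cardiac stress and matrix lists and DKO 2 for mitochondrial lists.

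The largest single difference was that of Gm8730, a processed pseudogene (ENSMUSG00000063696, chromosome 8, 102864845 to 102865798, minus strand). It had 5793, 1970 and 4080 reads in DKO 1, 2 and 3 and 0 in KO 1 and KO 3. This is at least 4308-fold higher against a floor of 3 reads over the KO group. Gm8730 had no read in either KO library, so its values are a description and no test is given. Of its 31-base stretches 62.8% also occur in Rplp0, a ribosomal protein gene, so reads of these copies may be split between them and the value of either is uncertain. Rplp0 was 579, 416 and 483 in DKO and 687 and 631 in KO (log2 difference -0.43, limma adjusted p = 0.183). Summed over both genes the signal was 846, 602 and 718 in DKO and 687 and 631 in KO, and the groups overlapped. A related pseudogene, Gm9625, which shares 50.9% of such stretches with Gm8730, had 256, 89 and 192 reads in DKO and 1 and 0 in KO.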

How the data were processed

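Poly(A) RNA-seq of 3 DKO, 2 KO and 3 C libraries was used, with groups and replicate numbers from the titles. The deposited table holds a signal per gene, which the values show to be (reads + 0.5) over a scaled library size; the authors' steps are not described further in the labels. Cutadapt, RSEM 1.3.1, limma and the build GRCm38 appear in the submitters' processing notes without roles; annotation and strandedness are not given there. Whole reads were recovered from the deposited signal for all values within a tolerance of 0.001, and served for alternatives with edgeR 4.0.16 and DESeq2 1.42.0. Libraries held 15028176 to 21202385 reads in the groups compared, and replicates differed beyond sampling noise (chi-square per gene 54.9 to 252). limma 3.58.1 (R 4.3.3) was applied to log2(signal + 1) of genes that reached a signal of 1 in 2 or more libraries, with a mean per group over all 8 libraries and Benjamini-Hochberg adjustment at 0.05. The fit was run on simulated reads with the same spread beyond sampling noise in every gene and library. The DKO and KO libraries differed in spread, so this run does not check the fit for them. Some genes are not reported here. The comparison and the gene lists were chosen with earlier results of these data known; lists of cytosolic and mitochondrial ribosomal proteins and of the proteasome were added after the values were seen. The rule for genes to name took Vhl, Hif1a, Epas1 and Wt1, the 15 called genes per direction with the largest difference among those at or above the median level with no overlap between groups (predicted genes left out), and per list up to 6 called members with the largest difference, or the member with the smallest p; the text gives part of these, and the other 52 genes named were chosen after their values were seen. Alternatives changed the pseudocount, filter, scaling, length and GC trend, test, weights, block and libraries.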

Additional observations from a re-analysis of the deposited data

How the results depend on the processing

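With only the DKO and KO libraries in the fit 733 genes were called, 353 higher and 380 lower; this fit has fewer samples. With mitochondrial transcripts removed 3800 were called, 385 higher and 3415 lower. This fit also dropped the factors that scale the library sizes of the deposited signal (0.705 in DKO 2 to 1.37 in KO 1). The parts of both changes in these counts were not told apart. Leaving out each library in turn gave 310 to 1989 calls, 144 to 1085 higher and 166 to 904 lower, with the lowest counts without KO 3 and then KO 1 (293 higher, 271 lower); the remaining KO library is then assumed to vary like the other groups. The other 12 alternatives that keep all libraries, the block included, stayed within 1.5 times of the count, among them voom (1677), edgeR (1692) and DESeq2 on whole reads. With the replicate number as a block 1269 genes were called (641 higher, 628 lower). Deviations of same-numbered libraries from their group means correlated between -0.27 and 0.22, and those of differently numbered libraries between -0.36 and 0.21. With 2 KO libraries, whose deviations mirror each other, these values cannot decide whether same-numbered libraries were paired. Of the 121 called genes named in the text, none reversed in any alternative, and 27 lost their call without KO 1, 33 without KO 3 and 12 with only DKO and KO in the fit. Genes without a call changed sign as follows: Cpt2 (-0.14), Dcn (-0.32), Epas1 (-0.33), Tgfb1 (-0.20) and Vhl (-0.12) with mitochondrial transcripts removed, Dcn (-0.11), Epas1 (-0.12) and Myh6 (-0.87) with quantile normalisation, Myl4 (0.064) with array weights. Without single libraries the differences of these genes ranged over 0: Dcn (-0.28 to 0.40), Epas1 (-0.065 to 0.19), Ldha (-0.29 to 0.014), Myl4 (-1.81 to 1.51), Myl7 (-2.31 to 1.49), Tcf21 (-0.55 to 0.020). The cause was not tested for these. Called genes that a fit left untested, such as Krt19 and Krt18 without KO 1 or KO 3, were not counted as losing their call. Precision is limited by the 2 KO libraries, and genes under a signal of 1 cannot be told from the floor of log2(signal + 1).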

Other observations

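Several genes outside the lists described above passed in all 22 alternatives and, like 1598 of the 1599 called genes, had no overlap between the groups. Apart from Serpina3n, Carns1 and Phkg1, which the rule for named genes took, they were chosen after their values were seen. Dio2, the deiodinase that activates thyroid hormone inside cells, was 0.621, 2.22 and 0.835 in DKO and 22.3 and 9.79 in KO. Its values in DKO 1 and DKO 3 were under 1, near the floor of log2(signal + 1), and no test is given. Ndufa4l2, a mitochondrial protein induced through HIF-1, was 30.3, 30.6 and 20.6 against 70.8 and 61.6 (log2 difference -1.27, limma adjusted p = 0.0031). Serpina3n, an acute-phase protease inhibitor, was 7.10, 5.14 and 1.99 against 36.7 and 26.3 (log2 difference -2.60, limma adjusted p = 0.00121), and Itga9, an integrin chain, 21.1, 19.3 and 28.6 against 79.1 and 80.1 (log2 difference -1.77, limma adjusted p = 0.000243). Glul, glutamine synthetase, was 83.2, 92.6 and 113 against 237 and 339.7 (log2 difference -1.56, limma adjusted p = 0.00118), and Clu, the secreted chaperone clusterin, 302, 247 and 432 against 842 and 997 (log2 difference -1.52, limma adjusted p = 0.00289). These lower genes showed no overlap between the groups.

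Among genes higher in DKO, Clcn1, the chloride channel of skeletal muscle, was 11.3, 22.2 and 18.1 in DKO and 2.18 and 1.13 in KO (log2 difference 2.76 ± 0.28, limma adjusted p = 0.000243). Carns1, which makes the dipeptide carnosine, was 76.6, 109 and 106 against 27.7 and 23.4 (log2 difference 1.87, limma adjusted p = 0.000753), and Phkg1, the muscle catalytic subunit of phosphorylase kinase, 28.1, 23.6 and 23.4 against 3.96 and 7.58 (log2 difference 1.99, limma adjusted p = 0.000699). Rpl3l, the ribosomal protein of mature striated muscle, was 235, 165 and 284 against 82.7 and 97.5 (limma adjusted p = 0.00399). Crhr2, the receptor of urocortins in the heart, was 26.3, 41.4 and 38.9 against 11.4 and 13.4 (log2 difference 1.43, limma adjusted p = 0.00287), and Plxnb1, a semaphorin receptor, 56.5, 91.2 and 93.4 against 18.8 and 25.05 (log2 difference 1.81, limma adjusted p = 0.00167). In each of these genes the 3 DKO libraries lay above both KO libraries.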
